A study of Mus musculus with 12 samples.

Results

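A set of 10 genes that let leukocytes hold on to the vessel wall were followed in the mouse brain after intracerebral hemorrhage (ICH), namely Sele, Selp, Icam1, Vcam1, Selplg, Itgam, Itgb2, Itgal, Itga4 and Cd44. They were chosen by name for their function, with earlier results of these data known. All 10 were found once by symbol among the 54833 genes of the count table and were among the 21495 genes tested. The samples were perihematomal tissue of the ipsilateral caudate putamen from WT male C57BL/6 mice, taken 24 h after surgery, with 3 samples in each of 4 groups. Ages were 8 to 10 weeks in the young groups and 20 to 22 months in the aged groups. ICH was produced by an infusion of type IV collagenase, an enzyme that weakens the walls of small vessels, and sham mice had the same surgery with a saline injection. Mice were perfused with buffered saline before dissection, and each sample pooled the tissue of 2 or 3 mice, so that P values measure the spread between pools.

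Leukocytes leave the blood in steps. Selectins on activated endothelium (E-selectin, from Sele, and P-selectin, from Selp, which platelets also carry) catch passing cells through sugar-bearing ligands such as PSGL-1 (from Selplg) and CD44, and the cells roll. Chemokines then switch leukocyte integrins to a binding shape, after which LFA-1 (Itgal with Itgb2) and Mac-1 (Itgam with Itgb2) bind ICAM-1 and VLA-4 (Itga4 with Itgb1) binds VCAM-1, and the cells stop and cross the wall. In brain, Itgam, Itgb2 and Selplg are also expressed by resident microglia, and CD44, a receptor for hyaluronan and osteopontin, by reactive astrocytes as well as leukocytes. In these bulk samples, fewer cells of a type and less RNA per cell cannot be told apart.

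Read counts on genes summed to about 28410900 to 37785200 per sample, and the normalization factors lay between 0.954 and 1.04. Striatal markers were present in every sample, with 197 counts or more for Drd2 and 506 or more for Drd1. Genes of the choroid plexus, a neighbouring tissue, varied widely within groups: their summed FPKM (fragments scaled by transcript length and by library size) was 3161 in young ICH replicate 3, 1227 and 1566 in aged ICH replicates 1 and 2, and 4.95 to 339 in the other samples. Aged sham replicate 3 stood above the other aged sham samples in neutrophil and in monocyte and macrophage markers. Levels of a gene across samples are given as CPM, which are counts scaled to library size with the normalization factors.

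Among the 10 genes, 4 rose in young ICH vs. young sham mice (Icam1, Itgb2, Itgal and Cd44) and 3 rose in aged ICH vs. aged sham mice (Itgam, Itgb2 and Cd44), at an adjusted P under 0.05 in edgeR's quasi-likelihood test, with 0 falling in either age. Of all genes tested, 9.89% rose and 9.23% fell by this rule in young mice, and 7.0% rose and 6.15% fell in aged mice. No member had an unadjusted P under 0.05 with a lower level after ICH, and DESeq2 called none lower. Every ICH sample lay above every sham sample for 5 members in young mice and for 7 in aged mice, whereas 18.5% and 17.8% of all genes did so. By the criterion of a fold change above 1.5 and an unadjusted P under 0.05, 5 members rose in young and 4 in aged mice, compared with 8.66% and 7.24% of all genes. Selp, Icam1, Itgb2 and Cd44 met this criterion in both ages, and Itgal met it in young mice only. Itgam, called by edgeR in aged mice, did not meet it. The median log2FC of the 10 members was 0.81 in both ages, while over all genes tested it was 0.02 in young and 0.00 in aged mice. With young sham replicate 2 left out, 1 member was called in young mice, and 2 were called with young sham replicate 1 or with young ICH replicate 3 left out. In aged mice, 1 was called with aged sham replicate 1 left out, 0 with aged ICH replicate 1 or with aged ICH replicate 3 left out, and 5 with aged sham replicate 3 or with young ICH replicate 3 left out.

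**Figure D1:**
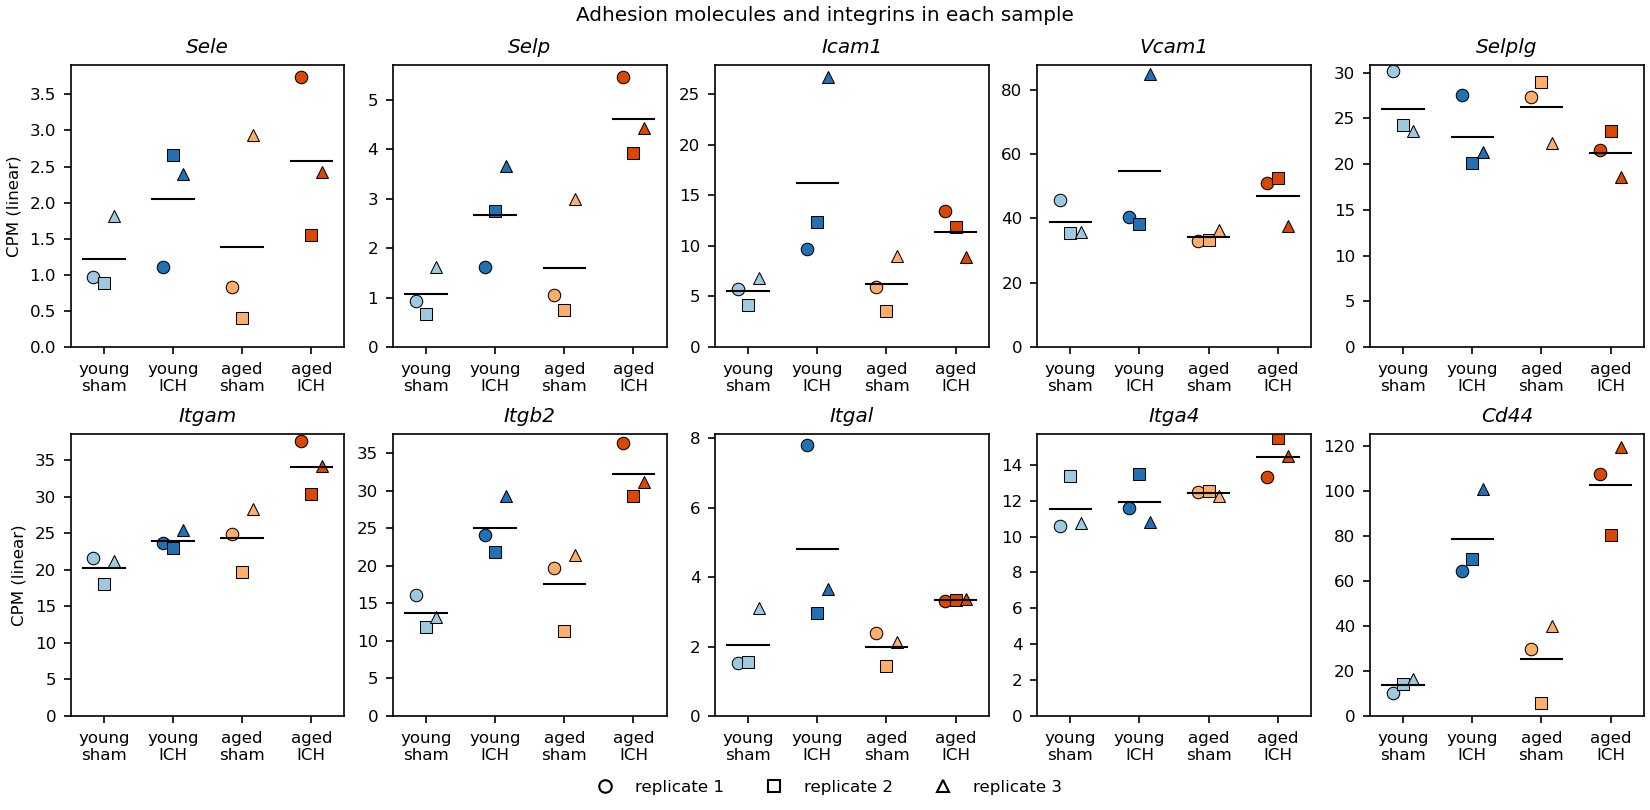
CPM of the 10 members (linear y axes from 0) in each of the 12 samples, by group, with a line at the mean of 3 samples and a symbol for each replicate number. Cd44 and Itgb2 are higher in every ICH sample than in the sham samples of the same age, and single samples stand out for Icam1 and Vcam1 (young ICH replicate 3) and for Itgal (young ICH replicate 1).

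**Figure D2:**
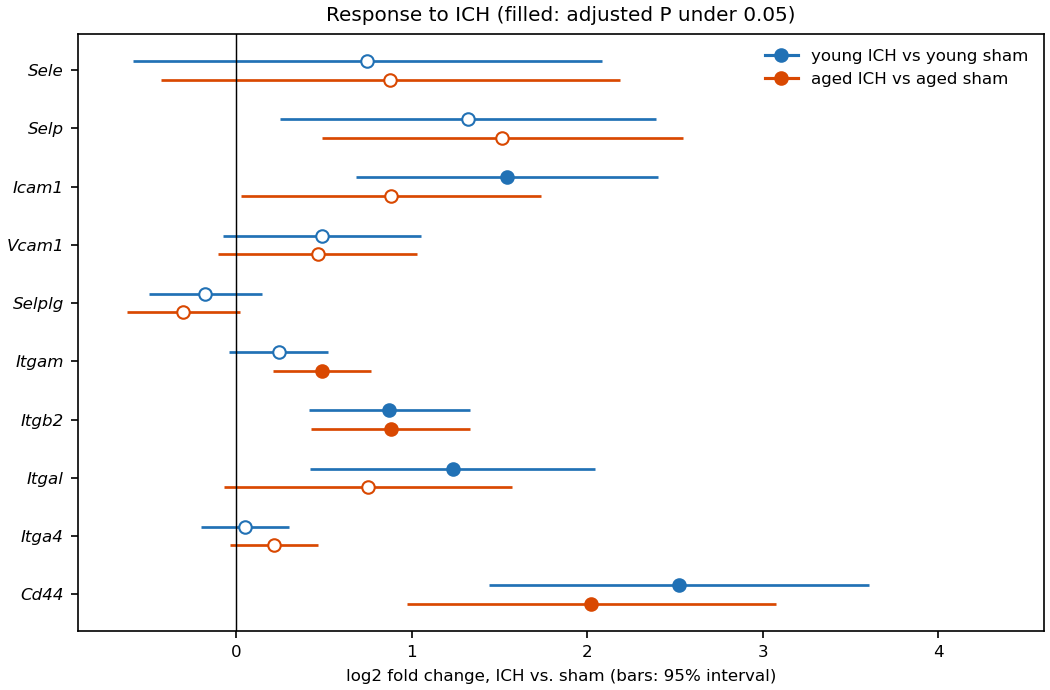
Log2 fold change of each member after ICH (x axis) in young and aged mice with its 95% interval, filled where the adjusted P was under 0.05. Cd44 has the largest estimates, 2.52 in young and 2.02 in aged mice, and the intervals of Sele, Vcam1, Selplg and Itga4 include 0 in both ages.

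Promoters are shown for the 3 endothelial members found in the RefSeq promoter table (GRCm38.p6), which holds 6 of the 10 members, because Sele and Selp belong to one gene cluster and Icam1 rose in young mice. Each line gives the 250 bases before the annotated start, with matches to TGANTCA (the AP-1 motif), TTCNNNGAA (a STAT motif) and TATAAA (the TATA box), searched on both strands, in capitals.
Sele, chr1:164047984-164048233, plus strand: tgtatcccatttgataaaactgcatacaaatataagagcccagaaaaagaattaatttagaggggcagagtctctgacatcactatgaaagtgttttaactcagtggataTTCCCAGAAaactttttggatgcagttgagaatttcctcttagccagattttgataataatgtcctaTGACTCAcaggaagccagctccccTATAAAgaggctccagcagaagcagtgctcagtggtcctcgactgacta
Selp, chr1:164115014-164115263, plus strand: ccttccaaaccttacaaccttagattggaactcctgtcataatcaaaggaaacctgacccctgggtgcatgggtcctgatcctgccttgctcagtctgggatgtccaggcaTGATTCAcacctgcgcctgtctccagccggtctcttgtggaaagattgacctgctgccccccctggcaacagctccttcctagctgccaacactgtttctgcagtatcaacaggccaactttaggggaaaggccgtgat
Icam1, chr9:21015690-21015939, plus strand: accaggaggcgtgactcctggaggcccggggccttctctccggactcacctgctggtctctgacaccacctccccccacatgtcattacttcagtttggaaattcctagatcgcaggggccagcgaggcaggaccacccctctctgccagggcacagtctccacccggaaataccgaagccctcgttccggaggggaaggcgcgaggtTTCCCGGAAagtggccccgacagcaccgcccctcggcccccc

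The Sele window held 1 match to each of the 3 motifs, Selp held the AP-1 motif and Icam1 the STAT motif. The windows of Itgam, Itga4 and Cd44 held none of the 3, and none of the 6 windows matched the NF-kB consensus as searched, which begins with GGG and ends with CC. Looser NF-kB patterns were not searched. Of all 32851 promoter windows of this length, 6.75% held the AP-1 motif, 7.02% the STAT motif, 12.4% the TATA box and 3.90% the NF-kB consensus. These matches are descriptions of letters and were not tested as sites. On chromosome 1 the order of genes, all on the plus strand, placed Sele (164048234 to 164057677) before Selp (164115264 to 164150026), with F5 after them. On chromosome 7, Itgal (127296260 to 127335138) lay upstream of Itgam (128062640 to 128118491), which was followed by Itgax and Itgad on the same strand. Of the members, 6 overlap another annotated gene (Selp, Icam1, Vcam1, Itgam, Itga4 and Cd44), on the same strand for Itgam and on the other strand for the rest, and neither the strand setting nor the handling of shared reads is given for the counting, so that these values are uncertain to that extent.

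Sele, the endothelial selectin made after inflammatory activation, was counted with 12 to 134 reads per sample. Its CPM was 0.967, 0.888 and 1.81 in young sham replicates 1, 2 and 3 and 1.10, 2.66 and 2.40 in young ICH replicates 1, 2 and 3. In aged mice it was 0.828, 0.405 and 2.93 in the sham replicates and 3.74, 1.56 and 2.42 in the ICH replicates. Groups overlapped in both ages, since young ICH replicate 1 was at a sham level and aged sham replicate 3 at an ICH level. The log2FC was 0.75 ± 0.61 (SE; 95% interval -0.59 to 2.08, edgeR adjusted P = 0.429) in young and 0.88 ± 0.60 (-0.43 to 2.19, adjusted P = 0.367) in aged mice. Without aged sham replicate 3, the log2FC of aged mice was 2.06 and passed the test (adjusted P = 0.0404).

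Selp, the selectin stored in endothelial and platelet granules, had 21 to 196 counts. Young sham replicates 1, 2 and 3 had 0.940, 0.666 and 1.62 CPM, and the young ICH replicates had 1.63, 2.76 and 3.66. Aged sham replicates were at 1.06, 0.742 and 2.99 CPM, and aged ICH replicates at 5.46, 3.93 and 4.43. Every ICH sample was above every sham sample of its age, though in young mice the closest samples differed little (1.62 vs. 1.63). The log2FC of 1.32 ± 0.49 in young mice (adjusted P = 0.0814) and of 1.51 ± 0.47 in aged mice (adjusted P = 0.0547) did not pass the adjusted threshold of edgeR and met the fold change and unadjusted P criterion. Both passed with DESeq2 (adjusted P = 0.0300 and 0.00971), and without aged sham replicate 3 the values were 1.32 (edgeR adjusted P = 0.0305) and 2.35 (0.0109). The aged value also passed without young ICH replicate 3 (1.51, adjusted P = 0.0476). The summed FPKM of 6 platelet genes was 1.27 to 1.81 in young sham, 3.23 to 4.25 in young ICH, 1.82 to 2.74 in aged sham and 4.41 to 6.0 in aged ICH samples. The part of platelets in the Selp values was not tested. Per endothelial marker FPKM, Selp was 0.349 ± 0.173% in young sham, 0.663 ± 0.239% in young ICH, 0.479 ± 0.343% in aged sham and 1.24 ± 0.064% in aged ICH samples (SD, n = 3).

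Icam1, the ligand of the beta2 integrins LFA-1 and Mac-1, rose in young mice. Its CPM was 5.78, 4.16 and 6.80 in young sham replicates 1, 2 and 3 and 9.66, 12.4 and 26.7 in the young ICH replicates, with no overlap. In aged mice the sham replicates had 5.96, 3.61 and 9.01 CPM and the ICH replicates 13.5, 11.9 and 8.86, and aged sham replicate 3 was just above aged ICH replicate 3. The log2FC was 1.54 ± 0.39 (edgeR adjusted P = 0.0198) in young and 0.88 ± 0.39 (adjusted P = 0.162) in aged mice. Icam1 met the fold change and unadjusted P criterion in both ages. The difference of these responses was -0.66 ± 0.55 (adjusted P = 0.9999), so that a different response of the ages was not shown. The young call was lost without young ICH replicate 3 (0.98, adjusted P = 0.0768), the sample with the high choroid plexus values, without young sham replicate 2 (1.37, 0.0858) and without young sham replicate 1 (1.57, 0.0504). The part of the choroid plexus in the Icam1 values was not tested.

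Vcam1, which binds VLA-4 on leukocytes, did not pass the test in either age. Young sham replicates 1, 2 and 3 were at 45.7, 35.3 and 35.7 CPM and young ICH replicates at 40.4, 38.3 and 84.9. Only young ICH replicate 3 was above the young sham range. In aged mice, sham values of 32.8, 33.2 and 36.2 CPM lay below the ICH values of 51, 52.4 and 37.5 without overlap. The log2FC was 0.49 ± 0.26 (95% interval -0.08 to 1.05, edgeR adjusted P = 0.212) in young mice and 0.46 ± 0.26 (-0.10 to 1.03, adjusted P = 0.265) in aged mice. Without young ICH replicate 3, it was 0.02 in young mice, and the unchanged estimate of 0.46 in aged mice passed the test (adjusted P = 0.0381). The choroid plexus sum was 3161 FPKM in young ICH replicate 3 and 29.9 and 4.95 in young ICH replicates 1 and 2. In aged ICH replicates 1, 2 and 3 it was 1227, 1566 and 25.2, and in sham samples 32.3 to 339 (young) and 24.9 to 55.1 (aged). The part of the choroid plexus in the Vcam1 values was not tested. Vcam1 FPKM per Icam1 FPKM was 3.55 ± 0.85 in young sham and 1.71 ± 0.30 in young ICH samples without overlap, and 3.07 ± 1.32 in aged sham and 2.04 ± 0.16 in aged ICH samples with overlap (SD, n = 3, no test).

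A list of 12 endothelial markers gave a background for these genes. Of them, 6 rose in young ICH and 3 in aged ICH mice and 0 fell. Their summed FPKM was 64.0 to 74.0 in young sham, 89.6 to 97.4 in young ICH, 69.1 to 78.0 in aged sham and 79.1 to 99.98 in aged ICH samples. Icam1 was 1.82 ± 0.46% of this sum in young sham and 4.05 ± 2.16% in young ICH samples, and Vcam1 was 6.20 ± 0.41% and 6.69 ± 3.02% (SD, n = 3). The part of a changed endothelial share of the tissue in the results was not tested.

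**Figure D3:**
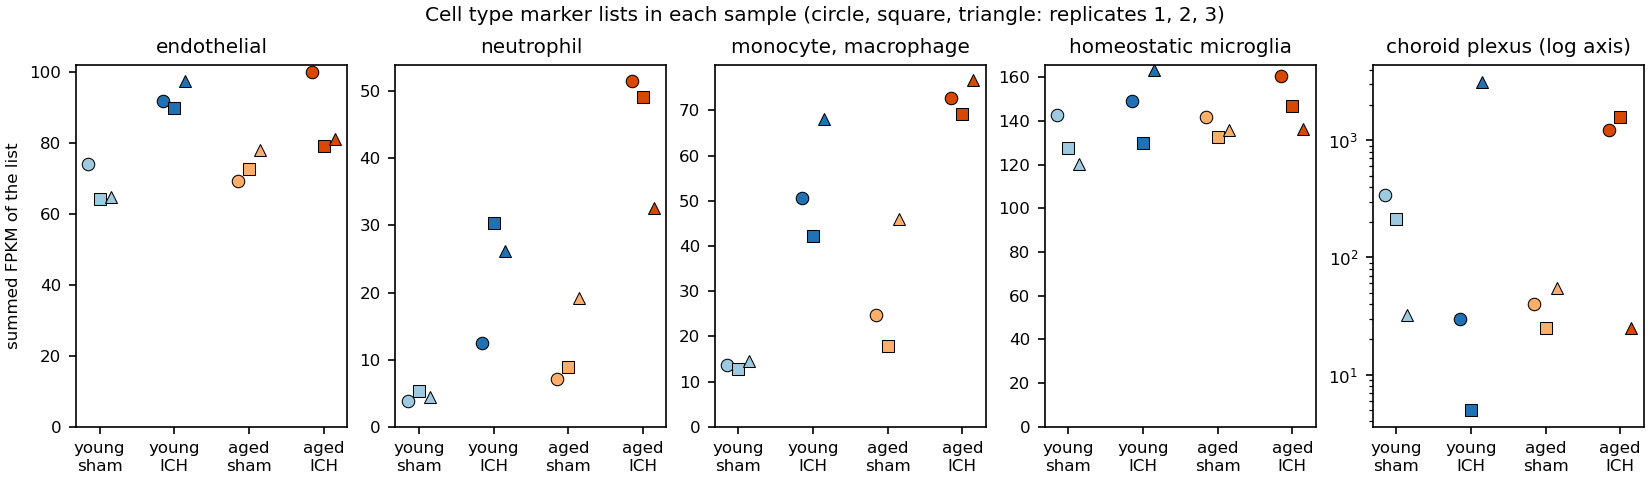
Summed FPKM of 5 marker lists in each sample by group, on linear axes from 0 except for the choroid plexus, which has a log axis. Neutrophil and monocyte and macrophage sums are higher in every ICH sample than in the sham samples of the same age, while homeostatic microglia sums overlap between all groups.

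On the leukocyte side, Selplg, whose product PSGL-1 is the main ligand of P-selectin, was not called in either age. It had 30.2, 24.2 and 23.6 CPM in young sham replicates 1, 2 and 3 and 27.5, 20.1 and 21.4 in the young ICH replicates. The aged sham replicates had 27.4, 28.9 and 22.3 CPM and the aged ICH replicates 21.5, 23.6 and 18.6. Sham and ICH samples overlapped in both ages. The log2FC was -0.18 ± 0.15 in young mice (95% interval -0.50 to 0.14, edgeR adjusted P = 0.436) and -0.30 ± 0.15 in aged mice (-0.62 to 0.02, adjusted P = 0.202). Selplg was the only member with a lower estimate after ICH in both ages.

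Itgam, the alpha chain of Mac-1 (CD11b) of myeloid cells and microglia, rose in aged mice. In young mice its CPM was 21.6, 18.0 and 21.2 in sham replicates 1, 2 and 3 and 23.6, 22.9 and 25.4 in the ICH replicates. In aged mice it was 24.9, 19.7 and 28.4 after sham surgery and 37.6, 30.4 and 34.2 after ICH. ICH samples were above sham samples without overlap in both ages, by a small margin. The log2FC was 0.24 ± 0.13 (95% interval -0.04 to 0.52, edgeR adjusted P = 0.214) in young and 0.49 ± 0.13 (adjusted P = 0.0290) in aged mice, with a difference between the ages of 0.25 ± 0.18 (adjusted P = 0.9999). The aged call was lost without aged sham replicate 1 (0.50, adjusted P = 0.0780), aged sham replicate 2 (0.36, 0.0905), aged ICH replicate 1 (0.41, 0.126) or 3 (0.48, 0.0794), and with all samples when only the 2 aged groups were fitted (0.50, 0.0595).

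Itgb2, the beta2 chain (CD18) that pairs with Itgam, Itgal, Itgax and Itgad, rose in both ages by nearly the same factor. Young sham replicates 1, 2 and 3 had 16.1, 11.8 and 13.2 CPM and young ICH replicates 24.1, 21.9 and 29.2. Aged sham replicates had 19.7, 11.3 and 21.5 CPM and aged ICH replicates 36.3, 29.3 and 31.1. No sham sample reached an ICH sample of its age. The log2FC was 0.87 ± 0.21 in young mice (edgeR adjusted P = 0.0149) and 0.88 ± 0.21 in aged mice (adjusted P = 0.0199), folds of 1.83 and 1.84. The interval of the difference between the ages was -0.64 to 0.65. The young call was lost without young sham replicate 2 (0.77, adjusted P = 0.0709) or 3 (0.84, 0.0508) or young ICH replicate 3 (0.75, 0.0563), and the aged call without aged ICH replicate 1 (0.79, 0.0865) or 3 (0.90, 0.0527).

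Itgal, the alpha chain of LFA-1 (CD11a), which lymphocytes and other leukocytes carry, was a low gene with 43 to 269 counts. It had 1.52, 1.55 and 3.10 CPM in young sham replicates 1, 2 and 3 and 7.81, 2.96 and 3.66 in the young ICH replicates. Aged sham samples had 2.38, 1.45 and 2.13 CPM, and the aged ICH samples were nearly equal at 3.32, 3.35 and 3.36. Young groups overlapped, as young sham replicate 3 was above young ICH replicate 2, whereas aged groups did not. Itgal rose in young mice (log2FC 1.23 ± 0.37, edgeR adjusted P = 0.0389), and in aged mice the log2FC was 0.75 ± 0.37 (95% interval -0.07 to 1.57, adjusted P = 0.212). The young call was lost without young ICH replicate 1 (0.69, adjusted P = 0.159), young sham replicate 1 (1.05, 0.117) or 2 (1.07, 0.143), and, with an estimate of 1.23 and an adjusted P of 0.0510 to 0.0541, when either aged sham replicate 1, aged sham replicate 3, aged ICH replicate 1 or aged ICH replicate 3 was omitted. With all samples kept, it was also lost with limma on log2(FPKM + 1) (0.41 on that scale, adjusted P = 0.0555) and when only the 2 young groups were fitted (1.23, 0.105). In young ICH replicate 1 the summed FPKM of 6 NK cell genes was 4.83, against 1.17 and 2.37 in the other young ICH samples and 0.214 to 1.21 elsewhere, and that of 10 T cell genes was 13, against 3.68 to 10.2 elsewhere. The T cell sum of 10.2 was that of young sham replicate 1. Among the T cell genes, Cd4 had 100 to 1258 counts per sample and the others 1 to 213. The part of NK and T cells in the Itgal values was not tested.

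Levels of different genes were compared per length, as FPKM. Among the 4 alpha partners of Itgb2, Itgam made up 84.2 ± 3.4% of the summed FPKM in young sham, 72.2 ± 6.5% in young ICH, 84.6 ± 3.0% in aged sham and 81.5 ± 1.2% in aged ICH samples (SD, n = 3). Its share was lower in every young ICH sample (64.7 to 76.8%) than in the young sham samples (80.7 to 87.5%), and the aged groups overlapped. Itgal held 6.45 ± 2.33% in young sham and 10.7 ± 4.9% in young ICH samples, and 5.29 ± 0.90% and 6.16 ± 0.62% in the aged groups. Itgb2 FPKM per summed partner FPKM was 0.933 ± 0.102 in young sham and 1.24 ± 0.17 in young ICH samples, and 0.991 ± 0.193 in aged sham and 1.27 ± 0.03 in aged ICH samples, without overlap between sham and ICH in either age. The beta chain was above the sum of its partners in every ICH sample (1.09 to 1.42 times it) and on both sides of it in sham samples (0.770 to 1.12 times it). Itgam overlaps another annotated gene on the same strand, and the handling of shared reads is not given. The level of the partner sum, and whether the ratio lies above 1, are uncertain to that extent.

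**Figure D4:**
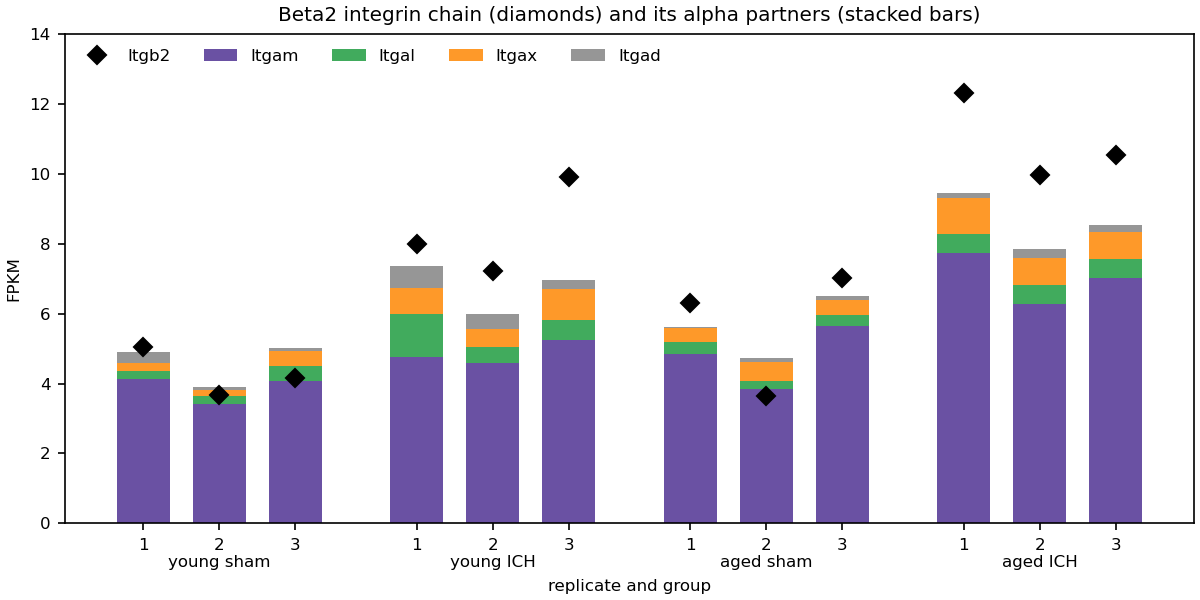
FPKM of Itgb2 (diamonds) and of its alpha partners Itgam, Itgal, Itgax and Itgad (stacked bars) in each sample, grouped by age and surgery. The diamond lies above the bar in all 6 ICH samples, and Itgam makes up most of each bar.

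Itga4, the alpha chain of VLA-4, had levels that moved little. Young sham replicates 1, 2 and 3 had 10.6, 13.4 and 10.8 CPM and young ICH replicates 11.6, 13.5 and 10.8. Aged sham replicates had 12.5, 12.5 and 12.2 CPM and aged ICH replicates 13.3, 15.5 and 14.5. The young groups overlapped and the aged groups did not. The log2FC was 0.05 ± 0.11 in young (95% interval -0.20 to 0.30, edgeR adjusted P = 0.807) and 0.21 ± 0.11 in aged mice (-0.04 to 0.46, adjusted P = 0.241). Of its beta partners, Itgb1 had 20.8 ± 1.2 FPKM in young sham and 31.3 ± 4.9 in young ICH samples, and Itgb7 had 0.442 ± 0.129 and 1.36 ± 0.43 FPKM. Itga4 itself was at 0.792 ± 0.103 and 0.871 ± 0.089 FPKM in these groups (SD, n = 3).

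Cd44, which binds hyaluronan, osteopontin and selectins, had the largest estimate of the members in both ages. Its CPM rose from 10.3, 14.2 and 16.5 in young sham replicates 1, 2 and 3 to 64.5, 69.9 and 101 in the young ICH replicates. Aged sham replicates were far apart, at 29.5, 5.90 and 40.0 CPM, and aged ICH replicates had 107, 80.4 and 119. Sham and ICH samples did not overlap in either age. The log2FC was 2.52 ± 0.50 (5.74-fold, edgeR adjusted P = 0.00613) in young and 2.02 ± 0.48 (4.06-fold, adjusted P = 0.0202) in aged mice, and the difference between the ages was -0.50 ± 0.67 (95% interval -1.95 to 0.96). The young call held without any single sample, while the aged call was lost without aged sham replicate 1 (2.15, adjusted P = 0.0580) and without aged ICH replicate 1 (1.99, 0.0685) or 3 (1.90, 0.0628), and with all samples when only the 2 aged groups were fitted (2.03, 0.0553).

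Markers of myeloid cells and astrocytes were counted in the same samples. Of 14 neutrophil markers 9 were tested, and 7 rose in young and 6 in aged ICH mice. Their summed FPKM over all 14 was 3.91 to 5.4 in young sham, 12.4 to 30.3 in young ICH, 7.12 to 19.2 in aged sham and 32.6 to 51.5 in aged ICH samples. Among the 14, Ly6g (0 to 4 counts), Cebpe (0 to 4), Elane (0 to 5), Mpo (0 to 9) and Camp (0 to 12) were too low to be tested, while Cxcr2 (6 to 140 counts) rose by 3.08 and 2.43 and Retnlg (0 to 47 counts) by 5.12 and 2.16 on the log2 scale in young and aged mice. Of 10 monocyte and macrophage markers, 6 rose in young and 5 in aged ICH mice, with summed FPKM of 12.8 to 14.5, 42.2 to 68.0, 18.0 to 45.9 and 69.3 to 76.8 in the same order of groups. Of 10 homeostatic microglia markers, 2 fell in young mice, and in aged mice 1 rose and 2 fell. Their summed FPKM was 120 to 143 in young sham, 130 to 163 in young ICH, 133 to 142 in aged sham and 136 to 160 in aged ICH samples. Of 6 astrocyte markers, 3 rose in young mice, and in aged mice 2 rose and 1 fell. Their summed FPKM was 303 to 368 in young sham, 583 to 788 in young ICH, 326 to 464 in aged sham and 632 to 733 in aged ICH samples. Relative to the microglia sum, Itgb2 was 3.29 ± 0.35% in young sham and 5.66 ± 0.36% in young ICH samples and 4.12 ± 1.24% and 7.40 ± 0.52% in aged samples (SD, n = 3), without overlap between sham and ICH. The parts of incoming cells and of astrocytes in the results for the integrins and Cd44 were not tested.

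The order of levels also differed between sham and ICH samples. In young sham samples Selplg was highest at 5.83 ± 0.82 FPKM, above Itgb2 (4.29 ± 0.69), Vcam1 (4.20 ± 0.64) and Itgam (3.87 ± 0.39), whose samples overlapped each other. Cd44 was at 1.94 ± 0.45 and overlapped Icam1 (1.23 ± 0.30), and Itga4, Sele, Itgal and Selp were below 1 FPKM. In young ICH samples Cd44 came first at 11.8 ± 3.1 FPKM, with overlapping neighbours from Cd44 down to Icam1 (3.81 ± 2.20). In aged sham samples Selplg was again first (6.04 ± 0.74), and each member overlapped the next in the order. In aged ICH samples Cd44 (15.6 ± 3.0), Itgb2 (10.9 ± 1.2), Itgam (7.02 ± 0.73) and Vcam1 (5.49 ± 0.97) followed each other, with overlap only between Vcam1 and the next, Selplg (5.15 ± 0.62). Icam1 (2.71 ± 0.56), Selp (1.08 ± 0.18), Itga4 (1.07 ± 0.08), Sele (0.914 ± 0.389) and Itgal (0.527 ± 0.004) closed the order (SD, n = 3).

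Age alone gave no call among the members. In aged sham vs. young sham mice, 0 of 10 members passed edgeR's test, against 0.102% of all genes tested, and 0 had an unadjusted P under 0.05 or passed DESeq2. Over the 21495 genes tested, 2653 had an unadjusted P under 0.05 in this comparison. Sham groups of the 2 ages overlapped for all 10 members, while 21.0% of all genes did not overlap. The largest estimate was that of Cd44, 0.88 ± 0.48 (95% interval -0.18 to 1.94, adjusted P = 0.484), with aged sham replicate 2 below all young sham samples and the other aged samples above them. Without aged sham replicate 3 it was 0.38. In aged ICH vs. young ICH mice, 0 of 10 passed edgeR's test, against 0.0558% of all genes. Of the members, 2 (Itgam and Itga4) had an unadjusted P under 0.05, as did 2050 of the 21495 genes tested. DESeq2 called 1 member (Itgam) and 189 genes in all. Selp, Itgam and Itgb2 were higher in every aged ICH sample than in every young ICH sample, a lack of overlap seen for 13.3% of all genes. The closest samples nearly tied for Itgb2 (29.28 vs. 29.21 CPM) and had 3.93 vs. 3.66 CPM for Selp and 30.4 vs. 25.4 CPM for Itgam. Itgam had a log2 difference of 0.51 ± 0.13 (edgeR adjusted P = 0.228, 0.0420 with DESeq2 and 0.0420 to 0.312 over the alternatives that kept all samples of both groups). Selp had 0.78 ± 0.45 (adjusted P = 0.625) and Itgb2 0.36 ± 0.20 (0.612), and Icam1 was -0.51 ± 0.38 (0.710). These comparisons use the same samples as those of ICH with sham.

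In the interaction, the log2FC in aged mice less the log2FC in young mice, 0 of 10 members passed edgeR's test, none had an unadjusted P under 0.05, and DESeq2 called none. Of all genes tested 0% passed (606 had an unadjusted P under 0.05 and DESeq2 called 1). Estimates ran from -0.66 ± 0.55 for Icam1 to 0.25 ± 0.18 for Itgam. Intervals were wide for the low or variable genes, -1.74 to 2.0 for Sele and -1.29 to 1.68 for Selp, and narrower for Itga4 (-0.19 to 0.52) and Itgam (-0.15 to 0.64).

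A group of 8 gene lists around these steps, with 103 different genes tested, covered the pathway and included the 10 members. The lists, like the members, were chosen with earlier results of these data known. Of the 103 genes, 51 rose and 2 fell in young ICH mice, and 40 rose and 4 fell in aged ICH mice (edgeR, adjusted P under 0.05). These counts contain the called members and stand against the shares of all genes given above. The number called in young mice was 39 without young ICH replicate 3 and 36 to 52 without any other single sample. In aged mice it was 40 without aged sham replicate 3, 25 without aged sham replicate 1 or 2, 16 without aged ICH replicate 1 and 24 without aged ICH replicate 3.

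The 13 endothelial capture genes include the 4 endothelial members. Of the 13, 4 rose in young and 1 in aged mice, with a median log2FC of 0.60 and 0.46. Over all genes tested, 9.89% rose in young and 7.0% in aged mice, so that the aged count was near the share of all genes. Madcam1, a ligand of alpha4 beta7 integrin, rose in young mice (3.86 ± 1.21, edgeR adjusted P = 0.0451), as did Glycam1 (1.38 ± 0.42), a carrier of selectin ligands, and Icam1. Madcam1 and Glycam1 were low, with mean CPM of 0.192 and 0.316 in young sham and 2.85 and 0.829 in young ICH samples. Vwf, which platelets bind, rose in both ages (1.08 ± 0.15 and 0.73 ± 0.14). Of 10 junction genes tested, 5 rose and 2 fell in young mice and 4 rose and 2 fell in aged mice. Cdh5, the cadherin of endothelial junctions, rose by 0.77 ± 0.13 and 0.72 ± 0.13, Pecam1, used in crossing, by 0.76 ± 0.12 and 0.62 ± 0.12, Pvr by 0.74 ± 0.16 and 0.85 ± 0.16, and Esam by 0.62 ± 0.09 and 0.45 ± 0.09 on the log2 scale.

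Of 13 leukocyte receptor genes tested, which include the 6 leukocyte members, 8 rose in young and 5 in aged mice, with median log2FC of 1.26 and 0.88. Spn (CD43) and Cd226 rose in young mice by 1.93 ± 0.58 and 1.60 ± 0.51, and their aged values of 1.3 ± 0.59 and 1.15 ± 0.51 did not pass. Both were low, with mean CPM of 0.424 and 0.156 in young sham and 1.61 and 0.472 in young ICH samples. Among 17 other integrins tested, 6 rose in young mice, and in aged mice 5 rose and 2 fell. Itga2b, the platelet integrin chain, rose by 1.17 ± 0.20 and 0.93 ± 0.19, Itga7 by 0.93 ± 0.15 and 0.85 ± 0.15, and Itga5, a fibronectin receptor chain, by 0.68 ± 0.17 and 0.65 ± 0.17. Itga9 fell in aged mice (-0.996 ± 0.225, adjusted P = 0.0165) and had -0.51 ± 0.22 in young mice.

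Of 11 tested enzymes that build selectin ligands, 4 rose in young and 3 in aged mice. B4galt1, a galactosyltransferase, rose by 1.10 ± 0.16 and 1.02 ± 0.16, Gcnt1, which branches O-glycans, by 0.77 ± 0.15 and 0.57 ± 0.15, and Chst2, a sulfotransferase, by 0.61 ± 0.09 and 0.36 ± 0.09. St3gal4, a sialyltransferase, rose in young mice (0.50 ± 0.11) and had 0.30 ± 0.11 in aged mice. Of 19 integrin activation genes tested, 14 rose in young and 11 in aged mice, with medians of 0.59 and 0.48. Fgr, a Src family kinase of myeloid cells, rose by 2.14 ± 0.41 and 1.44 ± 0.38, and the kinases Syk (0.78 ± 0.15 and 0.87 ± 0.15) and Lyn (0.76 ± 0.16 and 0.79 ± 0.16) also rose in both ages. Fermt3, the kindlin of blood cells that switches integrins on, rose by 0.71 ± 0.10 and 0.82 ± 0.10.

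Of 12 genes for ligands of CD44 and VLA-4 and the linkers of CD44 to actin, 5 rose in young and 6 in aged mice. Spp1 (osteopontin), a ligand of both receptors, rose by 2.30 ± 0.36 and 1.89 ± 0.35. Msn (moesin) and Ezr (ezrin), the linkers, rose by 1.4 ± 0.24 and 1.25 ± 0.24 and by 1.06 ± 0.17 and 1.02 ± 0.17. Has2, a hyaluronan synthase, rose in aged mice (1.60 ± 0.38, edgeR adjusted P = 0.0207) and had 1.04 ± 0.40 in young mice. Its mean CPM was 0.679 in aged sham and 2.08 in aged ICH samples. Of 8 proteases that cleave adhesion molecules or matrix and their inhibitors, 5 rose in each age. Timp1, an inhibitor, rose by 2.44 ± 0.35 and 2.40 ± 0.35, and Adam8, Mmp9 and Mmp14, which are proteases, rose by 2.07 ± 0.33 and 2.08 ± 0.33, by 1.54 ± 0.23 and 1.03 ± 0.22, and by 0.69 ± 0.15 and 0.63 ± 0.15.

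**Figure D5:**
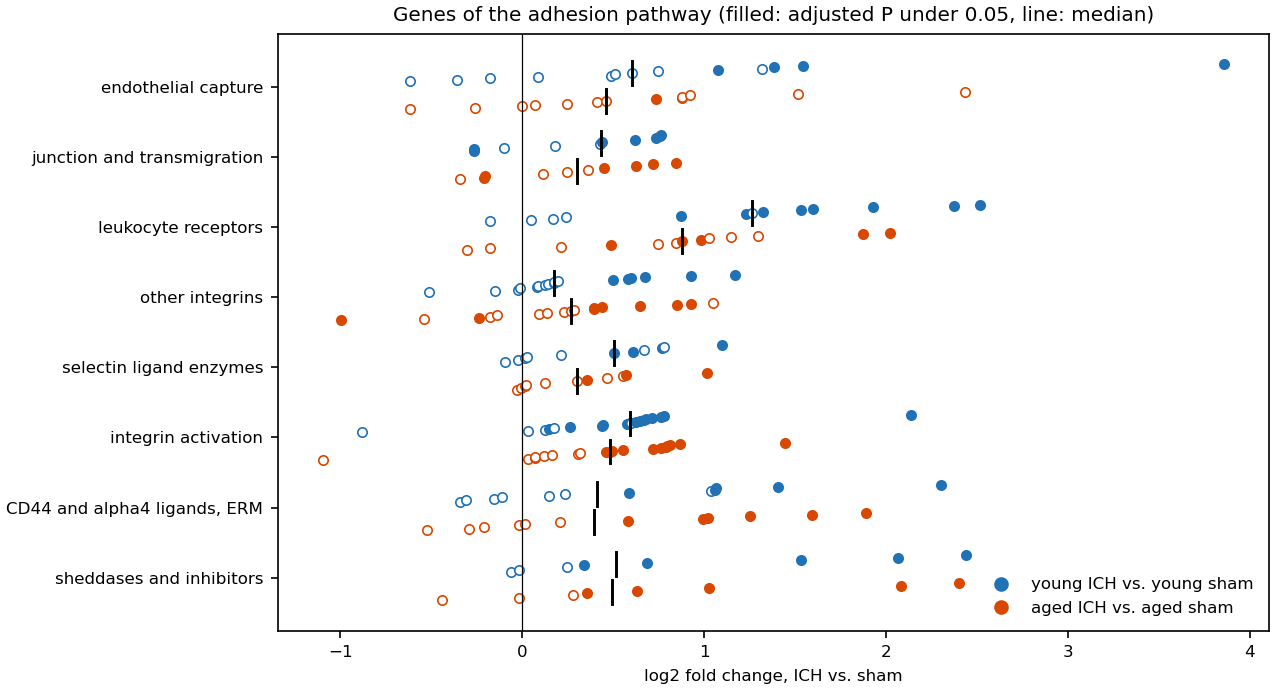
Log2 fold change after ICH (x axis) of the tested genes in 8 pathway lists, in young and aged mice, filled where the adjusted P was under 0.05, with a line at each median. The medians are above 0 in every list, and most called genes lie to the right of 0.

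For each member, the genes most like it were found by the root mean square difference of log2 CPM, centred on each gene's mean, over the 12 samples and 16824 genes, as a description. For Selp these were Tnfaip2 (0.27), Stx11 (0.29) and Tlr2 (0.34), and for Sele Milr1 (0.43), Cybb (0.44) and Slc15a3 (0.46). Icam1 was nearest to Ccdc102a (0.25), Loxl1 (0.27) and Cp (0.27), and Vcam1 to Gas6 (0.09) and Slc31a1 (0.11). Nearest to Itgb2 were Lat2 (0.12), Pik3r5 (0.12) and Bag3 (0.13), to Itgam H2-T22 (0.08) and Hhex (0.11), and to Itgal AW112010 (0.27), Itgb7 (0.28) and Ptpn22 (0.29). Cd44 was nearest to Bcl3 (0.23), Ccr1 (0.25) and Lilrb4a (0.27). Selplg (Auts2, Cldn12 and Diras1, each 0.10) and Itga4 (Atxn7, Dusp12 and Mir22hg, each 0.09) varied little, over ranges of 0.70 and 0.55 on the log2 scale.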

How the data were processed

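Total RNA was sequenced as paired reads in 12 samples. The authors used HISAT2 for alignment to GRCm38.p6 and featureCounts for gene counts, and the table they deposited holds raw counts and FPKM (fragments scaled by transcript length and by library size). A strand setting and the treatment of reads with several alignments are not given in the sources used here. Columns of the authors' own comparisons were not used. Groups and replicate numbers came from the labels.

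The 21495 genes that passed filterByExpr (minimum count 10) were fitted in edgeR 4.0.16 (limma 3.58.1, R 4.3.3) with TMM normalization, all 12 samples and 4 groups in 1 model. Calls used the quasi-likelihood test with Benjamini-Hochberg adjustment over all genes tested, and the study's criterion (fold change above 1.5 or below 0.67, unadjusted P under 0.05) is given beside them. SE is the absolute log2FC over the square root of F. A total of 3 samples against 3 cannot give an exact permutation P under 0.1, so none is reported. The test was also run on simulated counts, and the results of that check are not reported here. FPKM were described without a test.

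Alternatives were RLE normalization, no count filter, DESeq2 1.42.0, limma on log2(FPKM + 1), fits of the 2 groups only, a replicate block, the study's criterion, and each sample left out. The count of pathway genes under these was added after seeing the data. The members and lists were chosen with earlier results of these data known. Named genes were the members, up to 4 called genes of largest absolute log2FC per pathway list, and the 3 genes most like each member among those with a mean log2 CPM of at least 0. Some genes that this rule names are not reported here. Partner genes of the integrins and single marker genes are named with their values as well. Gene positions are from GENCODE vM21 and promoters from RefSeq, both GRCm38.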

Additional observations from a re-analysis of the deposited data

How the results depend on the processing

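Under the alternatives that kept all samples, the counts of members called were within 1.5 times those reported, except that aged ICH vs. aged sham gave 1 when only these groups were fitted and aged ICH vs. young ICH gave 1 with DESeq2. Leaving out 1 sample gave 1 to 4 members in young and 0 to 5 in aged ICH vs. sham, and 36 to 52 and 16 to 50 pathway genes. Over all members, comparisons and alternatives, 807 values kept direction and call, 26 lost and 13 gained a call, and 44 changed sign, each of a member that was not called. The interaction was not fitted with 2 groups only.

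Sign changes with all samples were Selplg in aged vs. young sham (-0.00075, DESeq2), Itgal in the same comparison (0.00080, limma) and Vcam1 in the interaction (0.012, limma, and 0.026, replicate block). With 1 sample left out, log2FC that changed sign ranged as follows. In young ICH vs. young sham, Itga4 ran from -0.041 to 0.16. In aged vs. young sham, Sele ran from -0.98 to 0.63, Selp from -0.25 to 0.99, Icam1 from -0.22 to 0.43, Selplg from -0.068 to 0.13 and Itgal from -0.23 to 0.37. In aged vs. young ICH, Sele ran from -0.039 to 0.59, Icam1 from -0.78 to 0.051, Vcam1 from -0.42 to 0.25, Selplg from -0.20 to 0.035 and Itgal from -0.78 to 0.014. In the interaction, Sele ran from -0.30 to 1.31, Selp from -0.21 to 1.03, Vcam1 from -0.22 to 0.45, Selplg from -0.25 to 0.027, Itgb2 from -0.23 to 0.18, Itgal from -0.90 to 0.059 and Cd44 from -0.96 to 0.0091. The cause was not tested.

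Samples of the same replicate number did not deviate together: the correlation of their deviations ran from -0.45 to 0.23, above 0.1 in 5 of 18 pairs, and in 13 of 36 pairs of different number. With the replicate block, 5 members were called in young and 4 in aged ICH vs. sham, Selp being added in both. Over all genes tested, 22 were called in aged vs. young sham, against 77 with no count filter, 282 with DESeq2 and 12 with the replicate block, and 12 in aged vs. young ICH, against 61, 189 and 8. Low counts of Sele, Selp and Itgal and groups of 3 pools limit the precision.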

Other observations

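Other cell type lists, not part of the adhesion steps, had these values. Of 5 red cell genes, 3 rose in young and 0 in aged ICH mice (edgeR, adjusted P under 0.05), with summed FPKM of 6.14 to 26.3 in young sham, 36.5 to 154 in young ICH, 33.9 to 48.1 in aged sham and 31.1 to 87.8 in aged ICH samples. Of 8 T cell genes tested, 2 rose in young and 1 in aged mice. Of 2 NK cell genes tested, both rose in young mice and 0 in aged mice, and of 3 platelet genes tested, 2 rose in young and 1 in aged mice. Of 2 B cell genes tested, 0 were called. Of 5 pericyte genes, 1 rose in each age. Of 6 oligodendrocyte genes, 0 were called in young mice and 3 fell in aged mice. Of 9 striatal neuron genes, 0 passed the test in either age, with median log2FC of -0.95 in young and -1.13 in aged mice, all 9 being lower. Of 5 choroid plexus genes, 0 passed, with medians of 2.06 and 2.92 and a spread within groups given above.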
